A study of Mus musculus with 10 samples.

Results

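The residual response of nafamostat-treated allergic lungs was described by setting the 3 libraries of the HDM+Nafamostat group against the 4 libraries of the PBS group, with 1 library per mouse. Every target with at least 30 counts summed over these 7 libraries was taken, which gave 14079 of the 23930 targets on the panel. HDM is an extract of house dust mite, and nafamostat is a small inhibitor of trypsin-like serine proteases. All mice were wildtype female BALB/c of 8 to 9 weeks. The HDM+Nafamostat mice had received HDM into the nose 2 times per week and nafamostat into the peritoneum, at 20 mg/kg, 30 minutes before each dose of HDM. The PBS mice had received saline into the nose. Another group, HDM, with 3 libraries, had received HDM without nafamostat, and its levels are shown beside the others for orientation. The course lasted 3 weeks in the methods and labels and 6 weeks in the legends, and the dose of HDM was 10 μg in 30 μl in the methods, whereas the labels give it in milligrams and millilitres. Nafamostat was dissolved in 3% acetic acid in PBS, and the labels do not say whether mice of the HDM and PBS groups that were sequenced had received this vehicle. No lung treated with nafamostat alone was analysed here, so in this comparison HDM and nafamostat cannot be told apart. The methods give 24 h after the last dose for the airway measurements, after which lungs were collected. Their section on RNA names an upper portion of the left lobe, from separate experiments. The section on histology instead names the right lobes for gene analysis and has the left lobes fixed. In either case whole tissue was measured.

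As background, mite proteases and other mite products stimulate the airway epithelium to release alarmins such as IL-33, which activate lymphocytes that secrete the type 2 cytokines IL-4, IL-5 and IL-13. IL-13 turns airway epithelium towards mucus-secreting goblet cells and, with IL-4, drives macrophages into an alternatively activated state through the transcription factor STAT6. IL-5 and the eotaxin chemokines bring eosinophils from blood to the airways.

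Total counts were 8053532 to 9666354 in HDM+Nafamostat libraries, 7105946 to 9354416 in HDM libraries and 5901279 to 7353792 in PBS libraries. Each count is a read of the 1 amplicon that represents a gene, without molecular barcodes, so that levels can be compared between libraries and not between genes, and counting error is only part of the error. The markers of lung cells were present in all libraries, with for instance 13213 to 25176 CPM (counts scaled to a common library size) of the surfactant gene Sftpc over the HDM+Nafamostat and PBS libraries. HDM+Nafamostat replicate 2 stood apart from the other libraries of its group in liver and olfactory receptor genes. It held 145 CPM summed over 22 liver genes and 410.4 CPM over olfactory receptor genes, against 23.6 to 35.8 CPM and 27.0 to 35.5 CPM in the other HDM+Nafamostat mice, and the 4 PBS libraries spread from 48.0 to 614 CPM for olfactory receptors. Over all genes replicate 1 was the most distant of the HDM+Nafamostat group. Its chi-square per gene was 18.9 against replicate 2 and 17.1 against replicate 3, whereas replicates 2 and 3 gave 11.1. In whole lung, fewer cells of a type and less RNA per cell cannot be told apart, and this holds for every level below.

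Of the 14079 targets, 650 were called higher in HDM+Nafamostat than in PBS lungs, which is 4.62% of those tested, and 161 were called lower, which is 1.14%. A call required an adjusted p under 0.05 in edgeR's quasi-likelihood test and a difference of at least 2-fold, that is 1 on the log2 scale. The calls were lopsided: 80.1% of them were in the higher direction, with a median log2 fold change of 1.69 for the higher and −1.18 for the lower genes. All 4 PBS libraries were at 0 for 11 of the higher genes, whose fold is given as a bound, at 3 counts over the PBS group, and the median was the same with these bounds. Over all targets tested the median was −0.01. Among the higher genes 228 differed at least 4-fold, 102 at least 8-fold and 59 at least 16-fold, bounds included, whereas 10 of the lower genes reached 4-fold. The HDM+Nafamostat and PBS libraries did not overlap for 623 of the 650 higher and 143 of the 161 lower genes. Over all 14079 targets tested, every HDM+Nafamostat library lay above every PBS library for 1935 and below for 1459. A call favours genes without overlap, so the counts among called genes are a description. At any fold, 1229 (8.73%) were higher and 779 (5.53%) lower at the same adjusted p. For 9180 targets (65.2%) the 95% confidence interval of the log2 fold change lay between −1 and 1, and these are called within 2-fold of PBS below. When each library was left out in turn, the higher calls ranged from 472 without HDM+Nafamostat replicate 2 to 691 without PBS replicate 4, and the lower calls from 121 without HDM+Nafamostat replicate 3 to 227 without PBS replicate 4. Members of gene lists are counted by the same rule. Of 53 lists 38 had 0 lower calls in edgeR's quasi-likelihood test, with 0 to 5 lower members at an unadjusted p under 0.05, and DESeq2 gave 0 in 37 of the 38. In 21 lists, 13 of them among these 38, there were 0 higher calls, with 0 to 18 higher members at an unadjusted p under 0.05, and DESeq2 gave 0 in all 21.

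**Figure D1:**
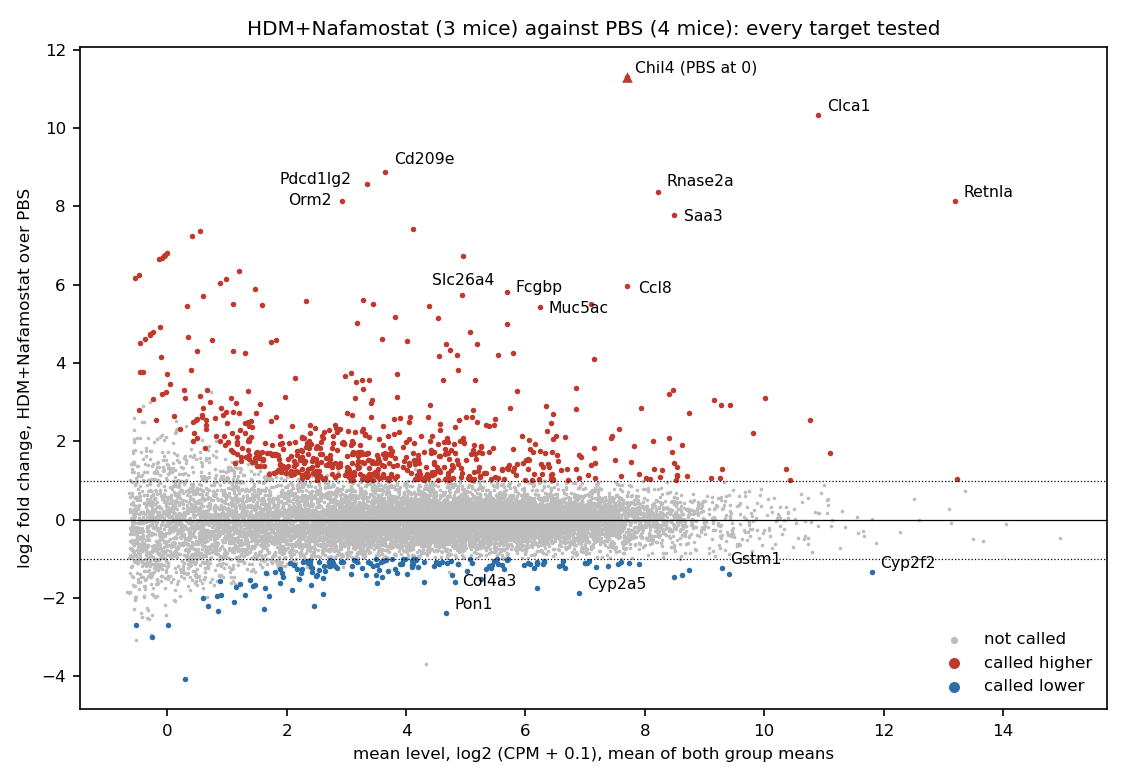
Each point is 1 of the 14079 targets, with its mean level on the x axis, as log2 of CPM plus 0.1, and its log2 fold change of HDM+Nafamostat over PBS on the y axis. Red points were called higher (650) and blue points lower (161), and dotted lines mark 2-fold. Chil4, at 0 in all PBS libraries, is drawn as a triangle where the scale was cut, which is not its bound. Other genes at 0 in all PBS libraries are drawn at fitted values, which are no bounds. The red cloud reaches far beyond the blue one, and most points lie between the dotted lines.

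The mucus-secreting goblet cell stood out. Of 17 goblet cell and mucus genes tested, 14 were called higher and 0 lower, with a median log2 fold change of 2.73, and 12 to 15 were called higher when single libraries were left out. Clca1, a secreted protein of goblet cells that is induced by IL-13, had 3883, 3484 and 4156 CPM in HDM+Nafamostat lungs, against 1.799, 1.31, 3.72 and 5.05 CPM in PBS lungs. It lies on chromosome 3, from 145004537 to 145032776 of mm10. The log2 fold change was 10.32 (SE 0.30, adjusted p = 6.31e-14, edgeR's quasi-likelihood test), and the lowest HDM+Nafamostat mouse lay far above the highest PBS mouse. Muc5ac, the gel-forming mucin that goblet cells gain in allergy, had 118, 153 and 174 CPM against 2.62, 3.198, 5.12 and 2.52 CPM, and the log2 fold change was 5.43 (SE 0.22, adjusted p = 1.44e-11, edgeR's quasi-likelihood test). Fcgbp, which encodes a mucus protein that binds IgG Fc, had 93.7, 83.6 and 126 CPM against 2.94, 0.872, 1.28 and 2.21 CPM, and the log2 fold change was 5.81 (SE 0.27, adjusted p = 5.51e-11, edgeR's quasi-likelihood test). In both genes every treated mouse lay above every PBS mouse by a wide margin. Agr2, which helps mucins fold in the endoplasmic reticulum, had a log2 fold change of 4.25, Muc5b, the mucin of the resting airway, one of 1.73. Capn9, a calcium-activated protease gene, had 42.3, 24.3 and 36.7 CPM against 0, 0, 0 and 0.789 CPM. Its fitted log2 fold change of 7.42 rests on 5 PBS counts, all in PBS replicate 4, and without that library it was 11.08 against PBS libraries at 0, which is no bound. The transcription factor genes of the goblet programme followed: Spdef had 11.7, 10.3 and 12.9 CPM in HDM+Nafamostat lungs against 2.29, 2.47, 2.05 and 2.37 CPM in PBS lungs (log2 fold change 2.34, SE 0.27, edgeR adjusted p = 1.19e-05). Foxa3, at 3.81, 0.881 and 2.73 CPM against 0.327, 0.727, 0.256 and 0.473 CPM, was called at 2.43 (adjusted p = 0.0201), a call that was lost without HDM+Nafamostat replicate 1 (adjusted p = 0.1), without HDM+Nafamostat replicate 3 (0.0707) or without PBS replicate 3 (0.059). Pigr, the receptor that carries IgA into mucus, was higher by 2.92 on the log2 scale. Members of the list that were not called were Muc4 (0.89), Muc16 (−1.59) and Muc20 (0.12), of which Muc4 was called without HDM+Nafamostat replicate 1 or PBS replicate 2 (1.09).

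Genes that set the salt and water of airway fluid moved unequally. Of 14 ion transporter genes, 3 were called higher and 1 lower, with a median log2 fold change of −0.03. Slc26a4, which encodes the anion exchanger pendrin, had 42.8, 77.7 and 58.3 CPM in HDM+Nafamostat lungs and 1.64, 0.436, 1.02 and 1.42 CPM in PBS lungs, and the log2 fold change was 5.73 (SE 0.30, adjusted p = 3.99e-10, edgeR's quasi-likelihood test). Slc5a1, a sodium-glucose cotransporter, was higher by 2.63 on the log2 scale. Scnn1b, which encodes the beta subunit of the epithelial sodium channel, was lower, at 34.7, 47.2 and 44.9 CPM against 91.9, 105, 105 and 70.5 CPM (log2 fold change −1.14, SE 0.17, edgeR adjusted p = 1.86e-04). All treated mice lay above PBS mice for the first pair and below them for Scnn1b. Cftr, the chloride channel of the airway, was within 2-fold of PBS at 0.19 (95% confidence interval −0.17 to 0.55).

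The chitinase family was also above PBS, in 3 of its 5 members tested. Chil4, a chitinase-like lectin of allergic mouse airways without chitinase activity, had 449, 439 and 362 CPM in HDM+Nafamostat lungs, against 0 counts in all 4 PBS libraries. With 3 counts over the PBS group taken as the limit of what could be missed, it was at least 3769-fold higher. Chia1, the acidic mammalian chitinase, had 2387, 1495 and 1685 CPM against 193, 172, 148 and 353 CPM (log2 fold change 3.10, SE 0.25, edgeR adjusted p = 1.20e-07). Chil1 had 2900.0, 3699 and 3451 CPM against 1003, 1026, 921 and 1187 CPM, a smaller step of 1.69 from a high level. The 3 genes did not overlap between the groups, and the other 2 members tested were not called. Chil4, Retnla, Orm2, Ccl12, Gstm1 and the Cd209 lectins belong to families of similar sequence, so a share of their reads may come from a relative, which was not tested.

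An alarmin and its receptor gene were also above PBS. Il33, the epithelial alarmin on chromosome 19, from 29925113 to 29960718, had 199.9, 223 and 238 CPM in HDM+Nafamostat lungs and 65.9, 45.9, 46.9 and 90.4 CPM in PBS lungs (log2 fold change 1.82, SE 0.19, edgeR adjusted p = 4.48e-06). Its receptor gene Il1rl1 had 16.5, 10.02 and 12.2 CPM against 4.09, 2.33, 5.38 and 4.102 CPM (log2 fold change 1.69, SE 0.29, edgeR adjusted p = 7.41e-04). Neither gene overlapped between the groups. Of 6 alarmin and receptor genes tested these 2 were called higher, and Tslp, Il25 and Crlf2 had too few counts to be tested.

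Type 2 cytokine transcripts were scarce in whole lung, and 4 of 11 genes of this list were called higher and 0 lower. Il13 had 1.65, 1.32 and 2.42 CPM in HDM+Nafamostat lungs, and no count in any PBS library, so it was at least 16.3-fold higher. Its decoy receptor gene Il13ra2 had 1.91, 1.65 and 1.47 CPM against 0 counts in all PBS libraries, at least 15.2-fold higher. Both rest on few reads, 48 and 44 counts summed over the HDM+Nafamostat group. Without HDM+Nafamostat replicate 3 Il13 fell under the limit of 30 counts and could not be tested, and the same held for Il13ra2 without HDM+Nafamostat replicate 1 or 2. Csf2rb, the shared chain of the receptors of IL-3, IL-5 and GM-CSF, had 24.8, 42.7 and 31.2 CPM against 9.48, 6.11, 10.1 and 12.5 CPM (log2 fold change 1.79, SE 0.24, edgeR adjusted p = 4.87e-05). Il5ra was called at 2.61 (adjusted p = 0.0275) and lost its call without HDM+Nafamostat replicate 1 (adjusted p = 0.0853), without HDM+Nafamostat replicate 2 (0.0946) or without PBS replicate 3 (0.0645), and it stood at 3.23 without PBS replicate 1. Leaving out HDM+Nafamostat replicate 1 or 2 left 2 of the 4 calls. Il4 and Il5 stayed under the limit: Il4 had 14 counts in the HDM+Nafamostat group and 2 in the PBS group, and Il5 had 20 and 1. Gata3, the transcription factor gene of type 2 lymphocytes, was lower in every treated mouse, at 5.21, 4.62 and 8.51 CPM against 9.97, 13.96, 11.9 and 12.5 CPM, with a log2 fold change of −0.98 (adjusted p = 0.0183) that did not reach 2-fold. It was called lower without HDM+Nafamostat replicate 3 (−1.30), without PBS replicate 1 (−1.06) and with library totals only (−1.03). The number of lower calls in the list was 1 without HDM+Nafamostat replicate 2, HDM+Nafamostat replicate 3 or PBS replicate 1. Without HDM+Nafamostat replicate 2 this call was of another gene, as Gata3 stood at −0.81.

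Most chemokines of the CC family were above PBS. Of 17 tested, 13 were called higher and 0 lower, with a median log2 fold change of 3.17. Ccl8, a ligand of CCR8 on T helper type 2 cells in the mouse, had 428, 387 and 419 CPM in HDM+Nafamostat lungs, against 6.38, 5.96, 4.36 and 9.94 CPM in PBS lungs (log2 fold change 5.96, SE 0.21, edgeR adjusted p = 1.02e-12). Ccl11, the eotaxin that attracts eosinophils through CCR3, had 64.2, 41.4 and 46.7 CPM against 1.96, 2.91, 2.05 and 3.16 CPM (log2 fold change 4.32, SE 0.23, edgeR adjusted p = 6.96e-10). Ccl17, which attracts CCR4-bearing T helper type 2 cells, had 64.1, 111 and 87.1 CPM against 2.45, 3.78, 2.82 and 10.3 CPM (log2 fold change 4.19, SE 0.33, edgeR adjusted p = 9.04e-08). Without PBS replicate 4 Ccl17 stood at 4.84 on the log2 scale. For these 3 ligands all treated mice lay above all PBS mice. The monocyte attractants Ccl2 and Ccl7 were higher by 4.21 and 5.17 on the log2 scale, Ccl9 by 3.31 and the second eotaxin Ccl24 by 3.14. Ccl5, at 159.6, 148 and 119 CPM against 119, 87.7, 78.8 and 135 CPM, overlapped with PBS and was not called (log2 fold change 0.44, adjusted p = 0.112).

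Among 15 CXC chemokines 7 were called higher and 1 lower. Cxcl5, an epithelial attractant of neutrophils, had 42.1, 83.2 and 57.5 CPM in HDM+Nafamostat lungs, against 0.491, 0.581, 0.256 and 0.947 CPM in PBS lungs (log2 fold change 6.74, SE 0.33, edgeR adjusted p = 1.45e-10). Cxcl1 and Cxcl3, which act on the same receptor, were higher by 2.62 and 4.55 on the log2 scale, and Cxcl13, the attractant of B cells, by 3.29. Ppbp, a chemokine that platelets store, was the lower one, at 43.1, 24.4 and 22.9 CPM against 55.8, 75.4, 69.2 and 68.6 CPM (log2 fold change −1.16, SE 0.20, edgeR adjusted p = 7.88e-04). Of 19 chemokine receptors 9 were called higher and 1 lower. The higher ones include Ccr1 (2.80), Ccr2 (1.79) and the eotaxin receptor Ccr3, which had 5.72, 5.28 and 2.102 CPM in HDM+Nafamostat lungs. In all, Ccr3 had 113 counts against 1 count in the PBS group, a ratio of 116 with an exact 95% counting interval of 20.4 to 4617. This interval, like the other counting intervals below, pools the reads of a group and leaves out the spread between mice. The count of higher receptors fell to 6 without HDM+Nafamostat replicate 2 and to 6 without HDM+Nafamostat replicate 3. The lower one was Ackr2, a scavenger receptor of CC chemokines, at −1.01 (adjusted p = 0.007698), and it was not called without HDM+Nafamostat replicate 2, PBS replicate 3 or PBS replicate 4. Without PBS replicate 1 Cxcl3 stood at 5.15 and Cxcl13 at 3.90.

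Eosinophil genes were above PBS as a list, with 6 of 7 tested called higher, 0 lower and a median log2 fold change of 4.18. Without HDM+Nafamostat replicate 2, 4 were called, and without PBS replicate 4 all 7. Prg2, which encodes the major basic protein of eosinophil granules, had 19.6, 23.8 and 20.2 CPM in HDM+Nafamostat lungs and 1.14, 0, 0.256 and 0.473 CPM in PBS lungs (log2 fold change 5.52, SE 0.42, edgeR adjusted p = 6.32e-08). Without PBS replicate 1 Prg2 stood at 6.38. Alox15, a lipoxygenase of eosinophils and alternatively activated macrophages, had 46.1, 43.8 and 41.9 CPM against 5.396, 0.581, 1.41 and 2.52 CPM (log2 fold change 4.18, SE 0.36, edgeR adjusted p = 2.73e-07). Without PBS replicate 1 Alox15 stood at 4.87. Siglecf, a lectin of eosinophils and alveolar macrophages, was higher by 1.65 on the log2 scale. Ear6, a ribonuclease of the eosinophil-associated family, was the member not called: its 55.5, 70.1 and 43.6 CPM overlapped with the 24.9, 22.5, 19.2 and 49.4 CPM of PBS lungs (log2 fold change 0.96, adjusted p = 0.0164). Ear6 was called without HDM+Nafamostat replicate 3 (1.12) or PBS replicate 4 (1.34). Rnase2a, of the same ribonuclease superfamily, had 671, 561 and 547 CPM in HDM+Nafamostat lungs, against 2.29, 1.599, 0.897 and 2.52 CPM in PBS lungs (log2 fold change 8.36, SE 0.23, edgeR adjusted p = 6.31e-14). The peroxidase gene Epx was under the limit for a test. It had 1, 3 and 19 counts in HDM+Nafamostat replicates 1, 2 and 3, so most came from replicate 3, and 0 in all PBS libraries.

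Genes of alternatively activated macrophages were above PBS in part. Retnla, a secreted product of alternatively activated macrophages and of airway epithelium, had 19663, 16889.6 and 19866 CPM in HDM+Nafamostat lungs, against 62.6, 63.4, 49.7 and 91.3 CPM in PBS lungs, and the log2 fold change was 8.14 (SE 0.23, adjusted p = 6.31e-14, edgeR's quasi-likelihood test). Of 14 genes of alternatively activated macrophages, 8 were called higher and 0 lower. Pdcd1lg2, which encodes the checkpoint ligand PD-L2, had 15.5, 20.8 and 23.96 CPM in HDM+Nafamostat lungs (log2 fold change 8.56, SE 0.50, edgeR adjusted p = 1.90e-09). It had 539 counts against 1 count in the PBS group, a ratio of 553 with an exact 95% counting interval of 98.8 to 21870.4. Arg1, the arginase that uses up arginine, had 45.6, 124 and 131 CPM against 2.29, 4.22, 2.31 and 3.63 CPM (log2 fold change 5.01, SE 0.33, edgeR adjusted p = 8.24e-09). Mmp12, the macrophage elastase, had 142, 461 and 196 CPM against 5.56, 4.94, 5.12 and 8.05 CPM (log2 fold change 5.50, SE 0.34, edgeR adjusted p = 3.63e-09). In each case the groups were far apart, although the treated mice differed among themselves, with replicate 2 highest for Mmp12. Mrc1, the mannose receptor, was higher by 1.60 on the log2 scale.

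Of 16 genes of lipid-handling and fusing macrophages 9 were called higher and 0 lower. Trem2, a lipid receptor of macrophages, had 39.9, 49.9 and 50.7 CPM against 8.503, 11.05, 6.41 and 10.7 CPM (log2 fold change 2.35, SE 0.20, edgeR adjusted p = 2.73e-07), and Spp1, which encodes osteopontin, was higher by 2.84 on the log2 scale. Gpnmb, a gene of the same cell state, overlapped between the groups, at 7.37, 20.6 and 15.2 CPM against 13.6, 10.5, 6.02 and 12.3 CPM. Broader markers of mononuclear phagocytes were higher in part, with 7 of 15 called and 0 lower, among them Cd68 (2.14) and Adgre1 (1.66). Other members went the other way, down to a log2 fold change of −0.91. In edgeR's quasi-likelihood test 2 members were lower at an unadjusted p under 0.05, and 1 was called lower without PBS replicate 1 or 3.

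Of 17 C-type lectin and Fc receptor genes 11 were called higher and 0 lower, with a median log2 fold change of 1.37. Clec7a, which encodes the glucan receptor Dectin-1, had 996, 1169 and 907 CPM in HDM+Nafamostat lungs, against 129, 89.3, 74.7 and 202 CPM in PBS lungs (log2 fold change 3.05, SE 0.25, edgeR adjusted p = 1.62e-07). Cd209e, a lectin of the DC-SIGN family, had 26.6, 18.1 and 30.2 CPM in HDM+Nafamostat lungs (log2 fold change 8.87, SE 0.49, edgeR adjusted p = 1.00e-09). It had 660 counts against 1 count in the PBS group, a ratio of 677 with an exact 95% counting interval of 121 to 26771. Fcer1g, the signalling chain shared by the IgE and IgG receptors, had 271, 364 and 328 CPM against 121, 97.4, 95.6 and 145 CPM (log2 fold change 1.48, SE 0.16, edgeR adjusted p = 6.27e-06), and Fcgr3, an IgG receptor, was higher by 2.33 on the log2 scale.

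**Figure D2:**
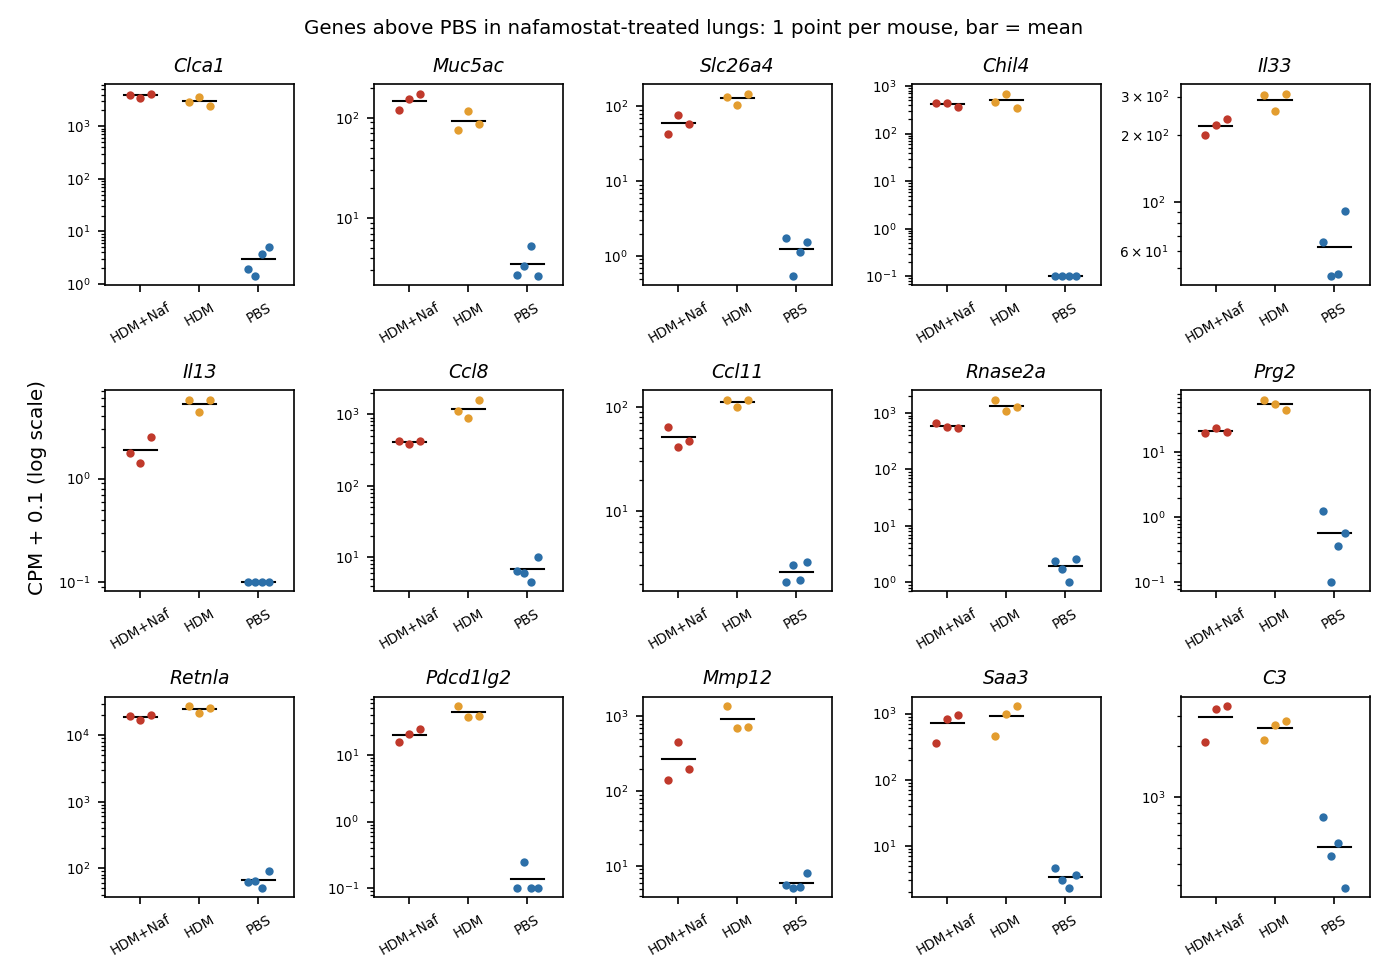
Levels of genes above PBS in nafamostat-treated lungs, as CPM plus 0.1 on a log scale, with 1 point per mouse and a bar at the mean for the HDM+Nafamostat, HDM and PBS groups. In each panel the 3 HDM+Nafamostat mice lie above all 4 PBS mice, as for Clca1 and Retnla.

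The promoters of these genes were searched for the spaced palindrome TTCNNNNGAA, the letters that STAT6 is known to bind, in the 250 bases before to 50 bases after each start site (RefSeq, GRCm38.p6). The motif reads the same on both strands and was held by 2284 of 32851 promoters, or 6.95%. Of the 23 higher genes of smallest p, of largest fold or of interest to the study, 19 were matched to a promoter by symbol and 5 of these (26.3%) held the motif. Of 13 lower leading genes 7 were matched and 1, Gstm1, held it. These 6 promoters are shown so that the letters and their distance to the start can be seen. Each sequence covers the 170 bases before the start site, 5′ to 3′ on the strand of the gene, with the motif in capitals. Its first base lies 145 bases before the start in Retnla (chr16:48842439-48842608, plus strand), 79 in Cd209e (chr8:3854287-3854456, minus strand), 82 in Pdcd1lg2 (chr19:29410749-29410918, plus strand), 131 in Clec7a (chr6:129472780-129472949, minus strand), 154 in Ccl17 (chr8:94810283-94810452, plus strand) and 109 in Gstm1 (chr3:108017974-108018143, minus strand).
Retnla: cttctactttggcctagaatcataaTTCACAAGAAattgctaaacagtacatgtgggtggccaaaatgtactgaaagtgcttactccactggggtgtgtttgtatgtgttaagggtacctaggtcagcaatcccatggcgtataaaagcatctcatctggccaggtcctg
Cd209e: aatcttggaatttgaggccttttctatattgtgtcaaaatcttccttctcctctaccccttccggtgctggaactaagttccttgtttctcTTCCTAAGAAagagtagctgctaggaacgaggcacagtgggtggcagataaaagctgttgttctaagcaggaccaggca
Pdcd1lg2: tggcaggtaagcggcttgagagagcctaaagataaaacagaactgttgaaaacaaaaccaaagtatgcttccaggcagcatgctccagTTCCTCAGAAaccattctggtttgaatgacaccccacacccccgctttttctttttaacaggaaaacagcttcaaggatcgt
Clec7a: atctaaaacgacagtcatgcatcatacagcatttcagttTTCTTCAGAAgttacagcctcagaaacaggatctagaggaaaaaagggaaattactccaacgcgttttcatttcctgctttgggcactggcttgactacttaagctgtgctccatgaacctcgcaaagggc
Ccl17: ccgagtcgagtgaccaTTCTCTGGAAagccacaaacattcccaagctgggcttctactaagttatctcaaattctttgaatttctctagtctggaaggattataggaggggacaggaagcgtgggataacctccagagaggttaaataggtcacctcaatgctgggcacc
Gstm1: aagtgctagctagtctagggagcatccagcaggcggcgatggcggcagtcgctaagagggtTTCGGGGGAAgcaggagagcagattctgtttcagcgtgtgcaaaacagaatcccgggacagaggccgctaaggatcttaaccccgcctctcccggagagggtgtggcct
A match is a description of letters and not a site of binding. Among genes matched to a promoter, 52 of 502 higher genes (10.4%) and 8 of 129 lower genes (6.2%) held the motif, against 705 of 10995 targets tested (6.41%). Only 77.2% of the higher genes and 78.1% of the targets tested could be matched, so these shares are given without a test, and the leading genes were chosen by their values in this contrast. The mRNA of Stat6 itself was within 2-fold of PBS, at 144, 179 and 167 CPM in HDM+Nafamostat and 154, 166, 145 and 144 CPM in PBS lungs (log2 fold change 0.10, 95% confidence interval −0.18 to 0.38). Of 11 STAT and SOCS genes 0 were called by edgeR's quasi-likelihood test or by DESeq2, and 1 had an unadjusted p under 0.05.

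Neutrophil genes gave 10 of 16 called higher and 0 lower. Retnlg, a resistin-like gene of neutrophils, had 292, 280.0 and 228 CPM in HDM+Nafamostat lungs, against 12.4, 7.27, 14.7 and 27.6 CPM in PBS lungs (log2 fold change 4.11, SE 0.28, edgeR adjusted p = 1.16e-08). S100a8 and S100a9, which form the calprotectin of neutrophils and monocytes, were higher by 1.42 and 1.29 on the log2 scale. The granule genes Mpo, Elane, Prtn3 and Ctsg, which are transcribed by precursors in the marrow, were under 30 counts. Il1b had 56.05, 117 and 56.8 CPM against 11.6, 10.2, 12.6 and 17.7 CPM (log2 fold change 2.56, SE 0.25, edgeR adjusted p = 1.48e-06), and Il1rn, which encodes its antagonist, had 38.5, 70.6 and 53.5 CPM against 4.41, 3.198, 3.07 and 4.73 CPM (log2 fold change 3.82, SE 0.24, edgeR adjusted p = 4.02e-09). Il17a, the cytokine of type 17 lymphocytes, had 1.398, 2.53 and 1.26 CPM against 0 counts in all PBS libraries, at least 15.7-fold higher, and was under the limit for a test without HDM+Nafamostat replicate 2. Of 20 genes of the IL-1, IL-6 and IL-17 families 6 were called higher, and 4 without HDM+Nafamostat replicate 2.

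Secreted defence proteins were among the highest of the contrast. Of 19 acute-phase and antimicrobial genes 9 were called higher and 1 lower. Saa3, a serum amyloid made outside the liver, had 359.9, 819 and 955 CPM in HDM+Nafamostat lungs, against 4.58, 2.91, 2.18 and 3.47 CPM in PBS lungs (log2 fold change 7.77, SE 0.33, edgeR adjusted p = 1.62e-11). Lcn2, which binds bacterial siderophores, and Reg3g, an antimicrobial lectin, were higher by 2.93 and 3.21 on the log2 scale. Orm2, an acid glycoprotein, had 7.88, 19.6 and 17.4 CPM in HDM+Nafamostat lungs, or 406 counts against 1 count in the PBS group, a ratio of 416 with an exact 95% counting interval of 74.3 to 16484. The lower gene was Bpifa1, a secreted protein of the upper airway, at 238, 192 and 143 CPM against 1149, 179.7, 569 and 201 CPM. Its values overlapped, and its call (−1.46, adjusted p = 0.03703) was lost without any of the 3 HDM+Nafamostat libraries (adjusted p from 0.054 to 0.149), without PBS replicate 1 (0.147, at a log2 fold change of −0.73), without PBS replicate 3 (0.0702), with DESeq2 (0.186) and with all 3 groups in 1 fit (0.0814). Since some of these proteins are also made by liver, the liver marker Alb is given beside them: it had 0.508, 73.9 and 0.4204 CPM in HDM+Nafamostat lungs and 0.327, 6.54, 19.5 and 8.99 CPM in PBS lungs, and 0 of the 13 liver genes tested were called by edgeR's quasi-likelihood test or DESeq2, with 2 at an unadjusted p under 0.05.

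The proteases that nafamostat inhibits and their natural partners were examined next. Of 17 genes of serine proteases and protease-activated receptors 2 were called higher and 0 lower. These were the coagulation factors F10, at 50.1, 81.4 and 72.1 CPM in HDM+Nafamostat and 12.8, 11.6, 8.33 and 18.5 CPM in PBS lungs (log2 fold change 2.41, SE 0.23, edgeR adjusted p = 9.10e-07), and F7, at 70.2, 125 and 104 CPM against 21.1, 22.1, 12.2 and 34.9 CPM (log2 fold change 2.15, SE 0.25, edgeR adjusted p = 1.42e-05). Of 11 mast cell genes only the histidine decarboxylase gene Hdc was called (1.31), and the mast cell tryptase gene Tpsb2, an enzyme that nafamostat blocks, had 2.796, 1.98 and 1.89 CPM against 7.19, 2.91, 3.46 and 0.473 CPM and overlapped. Among 21 protease inhibitor genes 5 were called higher and 0 lower, and 3 were higher without HDM+Nafamostat replicate 1. Timp1, an inhibitor of metalloproteinases, had 48.04, 66.6 and 80.2 CPM against 2.13, 2.33, 3.59 and 1.104 CPM (log2 fold change 4.79, SE 0.27, edgeR adjusted p = 1.09e-09). Serpina3n, a serine protease inhibitor, had 144, 209.7 and 275 CPM against 26.98, 21.95, 17.3 and 14.8 CPM (log2 fold change 3.37, SE 0.22, edgeR adjusted p = 7.09e-09). Neither of these 2 genes overlapped between the groups. Of 14 matrix metalloproteinases 6 were called higher and 1, Mmp28, lower at −1.10, which fell under 2-fold without HDM+Nafamostat replicate 1 (−0.995).

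Complement genes gave 6 of 17 called higher and 0 lower. C3, the central component, had 2119, 3339.8 and 3477 CPM in HDM+Nafamostat lungs, against 764, 446, 531 and 288 CPM in PBS lungs (log2 fold change 2.55, SE 0.25, edgeR adjusted p = 1.48e-06), and C1qb, a chain of C1q that macrophages make, was higher by 2.48. Of 23 lipid mediator genes 11 were called higher and 0 lower. They include Pla2g7 (2.12), which inactivates platelet-activating factor, Hpgds (1.72), a prostaglandin D2 synthase, and Alox5 (1.35), the first enzyme of the leukotriene route.

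Antigen presentation genes were above PBS in part. Of 17 MHC class II and dendritic cell genes 6 were called higher and 0 lower, and 9 were within 2-fold of PBS. Cd74, the invariant chain, had 5685, 7228 and 7749.8 CPM in HDM+Nafamostat lungs and 4304, 4816, 4927 and 4876 CPM in PBS lungs, a log2 fold change of 0.54 (adjusted p = 0.0221), and H2-Aa one of 0.52 (adjusted p = 0.0236). Both passed the adjusted p without reaching 2-fold. Itgax, which encodes the integrin CD11c of dendritic cells and alveolar macrophages, was called at 2.10. Among 22 T cell genes 5 were called higher and 0 lower. Pdcd1, the checkpoint receptor PD-1, had 12.1, 15.3 and 15.9 CPM against 2.13, 1.74, 0.256 and 0.473 CPM (log2 fold change 3.67, SE 0.42, edgeR adjusted p = 9.31e-06), and Il2ra, the IL-2 receptor alpha chain, was higher by 1.84. The others were the checkpoint receptor gene Ctla4 (1.82), the costimulator gene Icos (1.58) and Foxp3 (adjusted p = 0.0186), the transcription factor gene of regulatory T cells. Foxp3 overlapped with PBS, and its call was lost without HDM+Nafamostat replicate 2 (adjusted p = 0.0933), HDM+Nafamostat replicate 3 (0.129) or PBS replicate 3 (0.0572). Cd3g, a chain of the T cell receptor complex, was not called (0.32, adjusted p = 0.2204). Tnfrsf9, the costimulatory receptor 4-1BB, had 56.9, 64.2 and 75.6 CPM against 4.09, 6.11, 6.53 and 5.05 CPM (log2 fold change 3.57, SE 0.19, edgeR adjusted p = 6.96e-10). Jchain, the joining chain of polymeric IgA and IgM in plasma cells, had 514, 324 and 512 CPM against 149.6, 63.2, 75.2 and 156 CPM (log2 fold change 2.02, SE 0.26, edgeR adjusted p = 3.74e-05), and of 17 B and plasma cell genes 2 were called, and 1 without HDM+Nafamostat replicate 3, PBS replicate 2 or PBS replicate 3.

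Most cell division genes were above PBS. All 30 tested had a log2 fold change above 0, 20 were called higher and 0 lower, with a median of 1.26. Cdk1, the kinase of mitotic entry, had 34.7, 48.6 and 41.5 CPM in HDM+Nafamostat lungs, against 10.6, 7.995, 6.02 and 14.99 CPM in PBS lungs (log2 fold change 2.08, SE 0.24, edgeR adjusted p = 1.15e-05). Top2a, the topoisomerase of dividing cells, had 21.7, 44.3 and 50.6 CPM against 12.3, 9.304, 7.56 and 15.3 CPM (log2 fold change 1.81, SE 0.27, edgeR adjusted p = 1.61e-04). Mki67 had 7.75, 33.2 and 21.97 CPM against 5.56, 9.89, 7.303 and 5.36 CPM, where replicate 1 of the treated mice lay within the PBS range. Its call (1.57, adjusted p = 0.00578) was lost without HDM+Nafamostat replicate 2, at 1.08 (adjusted p = 0.0757). The number of division genes called was 12 without HDM+Nafamostat replicate 2 and 25 without HDM+Nafamostat replicate 1.

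Some genes of club cells and of detoxification were below PBS. Of 26 tested 8 were called lower and 0 higher, with a median log2 fold change of −0.45, and 7 to 10 were called lower when single libraries were left out. Pon1, a paraoxonase on chromosome 6, from 5168090 to 5193987, had 10.04, 8.697 and 5.89 CPM in HDM+Nafamostat lungs, against 43.98, 33.3, 46.4 and 46.7 CPM in PBS lungs (log2 fold change −2.38, SE 0.21, edgeR adjusted p = 5.23e-07). Cyp2f2, the cytochrome that marks mouse club cells, had 2029.6, 1741 and 2342 CPM against 4039, 6121, 5931 and 4340.3 CPM (log2 fold change −1.33, SE 0.18, edgeR adjusted p = 6.82e-05). Cyp2a5, a cytochrome of airway epithelium, had 50.96, 58.8 and 44.2 CPM against 260.0, 114, 203 and 172 CPM (log2 fold change −1.87, SE 0.22, edgeR adjusted p = 1.19e-05). For these 3 enzymes every treated mouse lay below every PBS mouse. Gstm1, the glutathione transferase whose promoter is printed above, was lower by a log2 fold change of −1.24, and the secretoglobin gene Scgb3a2 by one of −1.39. Scgb1a1, the most abundant club cell transcript, had 30034, 22430.3 and 28202 CPM against 33077, 37930.0, 38439 and 38226 CPM and did not pass the test (−0.46, adjusted p = 0.0655).

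Some genes of the alveolar wall and its vessels were also below PBS. Of 23 endothelial genes 3 were called lower and 0 higher, while 14 were lower at any fold and the median log2 fold change was −0.62, against −0.01 for all targets. Cldn5, the tight junction claudin of endothelium, had 75.2, 95.2 and 78.9 CPM in HDM+Nafamostat lungs, against 174, 160.2, 166 and 215 CPM in PBS lungs (log2 fold change −1.10, SE 0.15, edgeR adjusted p = 6.54e-05). Aplnr, the receptor of apelin, had 51.6, 41.4 and 33.2 CPM against 78.2, 125, 103 and 90.9 CPM (log2 fold change −1.24, SE 0.18, edgeR adjusted p = 1.66e-04). Kdr, the main receptor of VEGF, and Cdh5, the endothelial cadherin, passed the adjusted p at −0.96 and −0.98, short of 2-fold. With library totals only both were called lower, as was Kdr without HDM+Nafamostat replicate 2 (−1.07) and Cdh5 without PBS replicate 4 (−1.08). Of 17 alveolar type 1 cell genes 1 was called lower, and 4 without PBS replicate 4, with a median of −0.41 and 8 lower at any fold. Rtkn2 had 115, 114 and 123 CPM against 250.2, 267, 268 and 249 CPM (log2 fold change −1.14, SE 0.13, edgeR adjusted p = 9.68e-06), which shows 2 tight groups that did not overlap. Vegfa, a growth factor that these cells supply to capillaries, had 335, 457 and 402 CPM against 646, 1005, 800.2 and 561 CPM (log2 fold change −0.92, adjusted p = 0.00257), and Ager was at −0.63 (adjusted p = 0.00871). Vegfa was called lower without HDM+Nafamostat replicate 2 (−1.03) or PBS replicate 4 (−1.05). Tmem100, a membrane protein of endothelium downstream of BMP signals, was lower by a log2 fold change of −1.26, and Ptrf, the caveolar coat protein cavin-1, by one of −1.29.

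**Figure D3:**
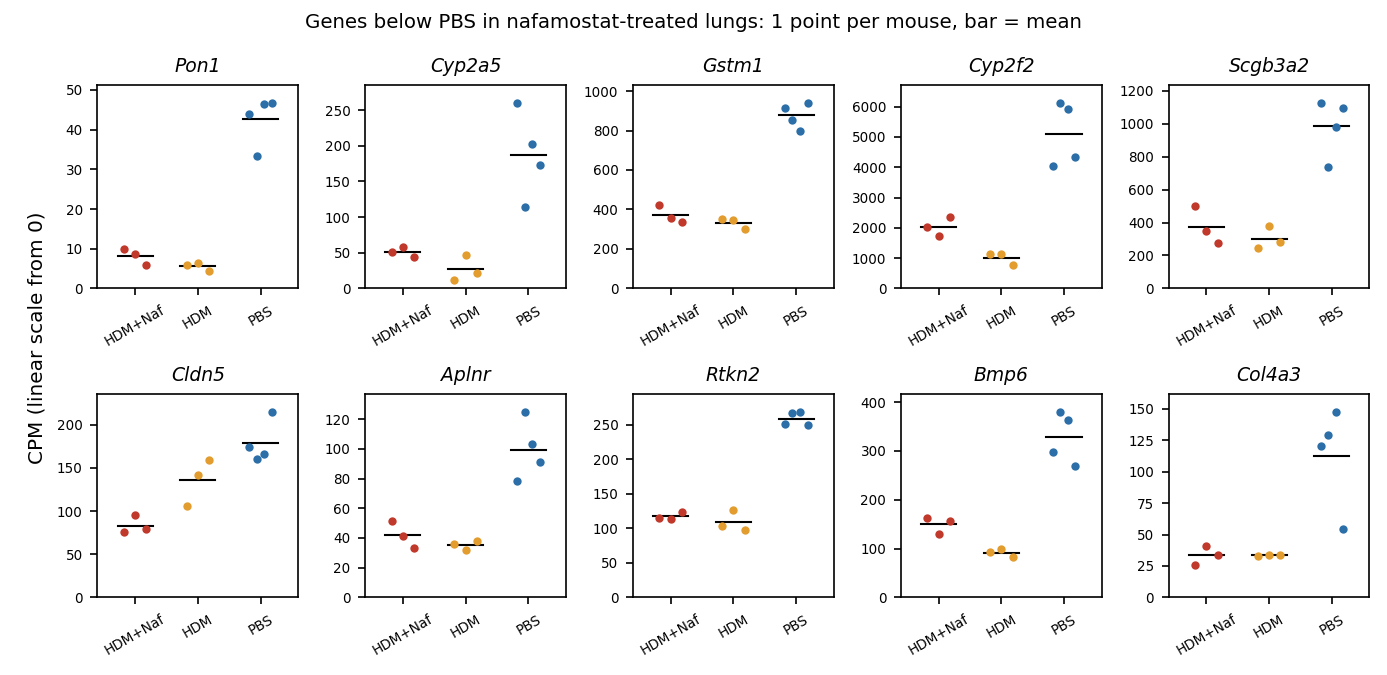
Levels of 10 genes below PBS in nafamostat-treated lungs, in CPM on linear axes that start at 0, with 1 point per mouse and a bar at the mean for the HDM+Nafamostat, HDM and PBS groups. In each panel all 3 HDM+Nafamostat mice lie below all 4 PBS mice.

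Few genes of signals and matrix were called. Over all targets tested 1.14% were called lower and 4.62% higher. Of 25 BMP and TGF-beta genes 2 were called lower and 0 higher, and 1 was lower without HDM+Nafamostat replicate 3. Bmp6, a bone morphogenetic protein, had 162, 129 and 157 CPM in HDM+Nafamostat lungs, against 298, 379.6, 363 and 270.1 CPM in PBS lungs (log2 fold change −1.14, SE 0.16, edgeR adjusted p = 7.32e-05). Of 27 Wnt and Hippo genes 2 were called lower, Amotl2 (−1.10), which binds the Hippo effector YAP, and Lgr6 (−1.08), a receptor of R-spondins whose values overlapped. This count was 0 without HDM+Nafamostat replicate 1 or PBS replicate 2, 2 without PBS replicate 4 and 1 without each of the other libraries. Outside this list the ligand gene Wnt10b was lower by a log2 fold change of −1.63. Of 27 collagens and matrix proteins 1 was called higher and 4 lower. At any fold 7 were higher and 7 lower at the same adjusted p, with a median log2 fold change of 0.05, so the list as a whole was not below PBS. The count of lower calls was 1 without PBS replicate 3 and 2 without HDM+Nafamostat replicate 1, and that of higher calls was 3 without HDM+Nafamostat replicate 1 and 2 without PBS replicate 1 or 2. Col4a3, a basement membrane collagen of the alveolus, had 25.9, 40.95 and 34.1 CPM against 120.3, 129, 147 and 54.1 CPM (log2 fold change −1.75, SE 0.26, edgeR adjusted p = 1.70e-04), and PBS replicate 4 was the lowest of its group. Lox, which crosslinks collagen, was the higher one at 1.34. Col1a1, the main fibrillar collagen chain, had 289, 466 and 485 CPM against 304, 311, 254 and 166 CPM, a log2 fold change of 0.68 (adjusted p = 0.0336) with overlapping values. Among 17 clock genes Nr1d1, which encodes the repressor REV-ERB alpha, was called lower at −1.19 and Nfil3 higher at 2.39, a call that was lost without HDM+Nafamostat replicate 2 (adjusted p = 0.0554). The hour at which lungs were taken is not given per mouse. Other genes named for their small p or large fold in the lower direction were Abi3bp (−1.51), Cpm (−1.18), Ets2 (−1.11) and Colq (−1.58).

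Some genes of heart muscle were below PBS as well. Of 15 cardiac muscle genes, which the sleeves of the pulmonary veins express in mouse lung, 5 were called lower and 0 higher, and 2 without HDM+Nafamostat replicate 3. Their summed level was 663 to 1122 CPM in HDM+Nafamostat lungs and 1090 to 1837 CPM in PBS lungs. Myh6 had 102, 93.9 and 68.7 CPM against 242, 221, 238 and 110.4 CPM (log2 fold change −1.20, SE 0.22, edgeR adjusted p = 0.00131). Of 8 mesothelial genes Upk3b was called lower (−1.26). The part that the piece of tissue taken had in these and the other lower genes was not tested, and the number of lower genes was 155 without the lists of other tissues.

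Some lists stayed close to PBS. Of 24 ciliated cell genes 23 were within 2-fold of PBS and 0 were called by edgeR's quasi-likelihood test or DESeq2, with 2 at an unadjusted p under 0.05. All 34 proteasome genes tested and 64 of 71 respiratory chain genes were within 2-fold, with 0 called by either tool. At an unadjusted p under 0.05 there were 13 and 23 of them, and 3 and 10 passed the adjusted p of edgeR's quasi-likelihood test at a smaller fold. Of 18 alveolar type 2 cell genes 16 were within 2-fold, and the 2 called, Sftpa1 (1.04) and Ctsh (1.04), sat at the limit of 2-fold and dropped under it without PBS replicate 2 (0.96 and 0.94) or without PBS replicate 3 (0.98 and 0.92), and Sftpa1 also without HDM+Nafamostat replicate 3 (0.995). With library totals only both were at 0.99. Of 14 smooth muscle genes 0 were called by either tool and 4 had an unadjusted p under 0.05. Of these, Actg2 (0.95, adjusted p = 6.08e-05), Myocd (0.95, adjusted p = 0.0175) and Acta2 (0.47, adjusted p = 0.0253) passed the adjusted p below 2-fold. Myocd was called without HDM+Nafamostat replicate 2 (1.06) or PBS replicate 1 (1.08). Interferon-stimulated genes do not belong with these lists, as 12 of 21 were within 2-fold, against 65.2% of all targets. Of the 21, 0 were called by either tool, 13 had an unadjusted p under 0.05, and 3 higher and 1 lower passed the adjusted p of edgeR's quasi-likelihood test below 2-fold. Vcam1, a vascular adhesion molecule, had 128, 131 and 148 CPM against 93.5, 89.4, 82.6 and 96.7 CPM, a separation without overlap that stayed under 2-fold (0.58, adjusted p = 0.00575).

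**Figure D4:**
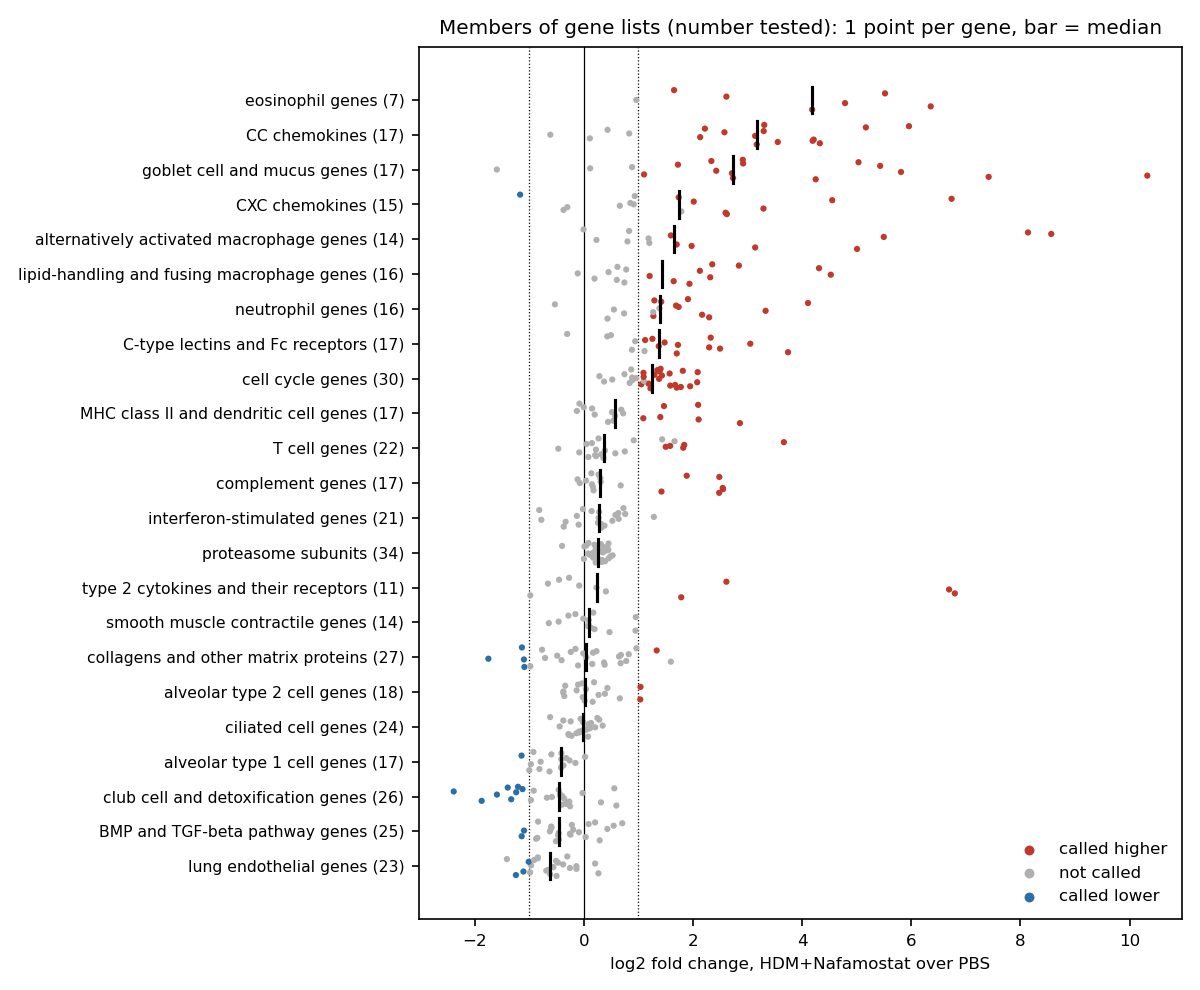
Log2 fold change of HDM+Nafamostat over PBS for the members of each gene list, 1 point per gene tested, with the list's median as a bar and red and blue points for genes called higher and lower. Goblet cell, eosinophil and CC chemokine genes lie to the right, endothelial and club cell genes to the left, and ciliated and proteasome genes between the 2-fold lines. Il13 and Il13ra2, at 0 in all PBS libraries, are drawn at fitted values, which are no bounds.

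The treated mice differed among themselves for some genes, and those with the widest range were named by rule. Acod1, which makes itaconate in activated macrophages, had 4.58, 35.8 and 15.8 CPM in HDM+Nafamostat replicates 1, 2 and 3, against 0.818, 0.291, 0.256 and 0.158 CPM in PBS lungs (log2 fold change 5.60, SE 0.64, edgeR adjusted p = 9.45e-06). Inhba, a subunit of activin A, had 13.3, 51.9 and 40.3 CPM against 4.25, 10.2, 4.100 and 4.42 CPM (log2 fold change 2.61, SE 0.38, edgeR adjusted p = 1.23e-04), and Ly6i 9.15, 29.1 and 18.7 CPM against 1.31, 1.74, 1.54 and 1.74 CPM (log2 fold change 3.57, SE 0.36, edgeR adjusted p = 2.14e-06). Replicate 1 was the lowest of the 3 mice for Acod1, Inhba and Mmp12. Without HDM+Nafamostat replicate 2 Acod1 stood at 4.72 and Mmp12 at 4.84, and without PBS replicate 1 Acod1 stood at 6.21. Hcar2, a receptor of niacin, was called at 1.97 and Il1f9, the cytokine IL-36 gamma, at 1.74, and both calls were lost without HDM+Nafamostat replicate 2, at 1.13 (adjusted p = 0.117) and 1.19 (adjusted p = 0.0886). Hamp, which encodes hepcidin, was called lower at −1.13 and lost its call without HDM+Nafamostat replicate 2 (adjusted p = 0.0817), HDM+Nafamostat replicate 3 (0.072) or PBS replicate 1 (0.0523), and with DESeq2 (0.0917). At the other end, Adgre1, the macrophage marker F4/80, had 27.5, 28.5 and 27.5 CPM in the 3 treated mice and 6.87, 7.27, 6.92 and 14.2 CPM in PBS mice. Hmga2-ps1, a pseudogene whose reads may come from Hmga2, had 18.2, 18.1 and 18.7 CPM against 8.83, 6.83, 9.48 and 8.36 CPM, Gm5150 35.8, 36.3 and 34.7 CPM against 8.34, 14.1, 8.07 and 15.3 CPM, and Hmcn1, a matrix protein, 25.8, 25.98 and 24.6 CPM against 54.3, 63.8, 82.9 and 37.5 CPM. The treated mice agreed closely for these genes while still lying apart from PBS. Msrb1 (1.05), Ggt5 (1.18) and Rwdd2b (1.00) were equally even among the treated mice, but Msrb1 and Ggt5 fell under 2-fold without PBS replicate 3 (0.97 and 0.98), and Rwdd2b lost its call without any 1 of the 3 HDM+Nafamostat libraries or PBS replicate 3 or 4 (0.79 to 1.02), with median-of-ratios factors (0.99), with library totals only (0.95) and with DESeq2 (0.99).

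**Figure D5:**
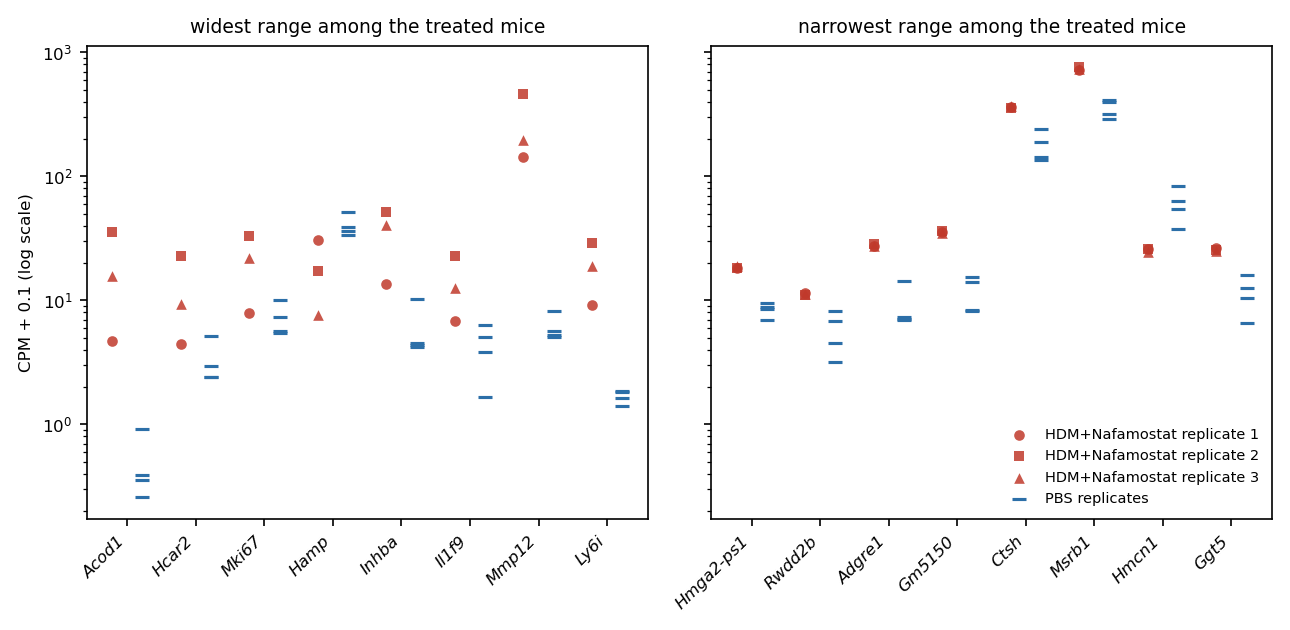
Genes called against PBS with the widest and the narrowest range among the 3 HDM+Nafamostat mice, with 1 point per mouse for the HDM+Nafamostat and PBS groups. For Acod1 and Inhba replicate 1 lies below the other treated mice, whereas the 3 treated mice nearly coincide for Adgre1.

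For orientation, levels in HDM mice without nafamostat are set beside these values. This and the comparison with PBS share the HDM+Nafamostat libraries. Clca1 had 3883, 3484 and 4156 CPM in HDM+Nafamostat lungs, 2836, 3615 and 2438 CPM in HDM lungs and 1.799, 1.31, 3.72 and 5.05 CPM in PBS lungs, and nafamostat against HDM gave a log2 fold change of 0.37 (adjusted p = 0.2103). Muc5ac, at 75.9, 118 and 87.5 CPM in HDM lungs, gave 0.66 (adjusted p = 0.0608), and Retnla, at 27953, 21934 and 25877 CPM, gave −0.42 (adjusted p = 0.152). None of these 3 genes passed the adjusted p, although the 95% confidence intervals, which are not adjusted over genes, were 0.02 to 0.73, 0.28 to 1.05 and −0.77 to −0.08 and leave out 0. HDM+Nafamostat and HDM libraries overlapped for Clca1 and not for Muc5ac and Retnla. Ccl8, at 1096, 880.4 and 1602 CPM in HDM lungs, was lower with nafamostat by a log2 fold change of −1.54 (adjusted p = 0.00343) and still 5.96 above PBS. Clec7a, at 2753, 2039 and 2799 CPM, gave −1.31 (adjusted p = 0.00343) and remained 3.05 above PBS, and Prg2, at 64.9, 55.7 and 45.1 CPM, gave −1.38 (adjusted p = 0.00343) and remained 5.52 above PBS. These 3 genes lay between HDM and PBS lungs in every treated mouse.

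Among genes called against PBS, the 8 with the smallest p against HDM in the same direction were taken, and their values are a description. Both comparisons share the 3 HDM+Nafamostat libraries, so that a shift in these libraries moves both the same way. Cldn5 had 75.2, 95.2 and 78.9 CPM in HDM+Nafamostat lungs, 106, 142 and 159 CPM in HDM lungs and 174, 160.2, 166 and 215 CPM in PBS lungs, with log2 fold changes of −0.71 against HDM (adjusted p = 0.0335) and −1.10 against PBS. Ptrf had 246, 275 and 220.3 CPM, 379, 374 and 358 CPM in HDM and 625, 588, 576 and 631 CPM in PBS lungs, with −0.58 against HDM (adjusted p = 0.0298) and −1.29 against PBS. Prkcdbp, which encodes cavin-3, a partner of cavin-1 in the coat of caveolae, had 6.101, 9.14 and 8.41 CPM, 17.9, 20.9 and 21.6 CPM in HDM and 14.9, 13.5, 13.1 and 24.1 CPM in PBS lungs, with −1.35 against HDM (adjusted p = 0.00848) and −1.05 against PBS, a step that fell under 2-fold without HDM+Nafamostat replicate 1 (−0.91) or PBS replicate 4 (−0.81). Ngdn, a factor of ribosome assembly, gave −2.36 against HDM (adjusted p = 0.00343) and −1.67 against PBS. Rnf187 gave −1.08 (adjusted p = 0.0183) and −1.13, which fell under 2-fold without HDM+Nafamostat replicate 3 (−0.98) or PBS replicate 4 (−0.9996). Tmem62 gave −1.36 (adjusted p = 0.0305) and −1.18, its values overlapped with PBS, and its call against PBS was lost without HDM+Nafamostat replicate 2 (adjusted p = 0.0502), HDM+Nafamostat replicate 3 (0.0926) or PBS replicate 3 (0.0705). Fer1l6, a ferlin, was above both groups, by 0.96 against HDM (adjusted p = 0.0249) and 5.16 against PBS, or 6.13 without PBS replicate 3. The eighth, Rprl2, was lower than PBS (−1.23) but did not pass the test against HDM (adjusted p = 0.0502), and its call against PBS was lost without HDM+Nafamostat replicate 1 (adjusted p = 0.071) or 3 (0.0871) and without PBS replicate 1 (0.0607) or 4 (0.0577).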

How the data were processed

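Mouse lung RNA was read with the Ion AmpliSeq Transcriptome panel, which holds 1 amplicon per gene, and sequenced on an Ion S5 XL. The tables deposited by the authors hold raw read counts per amplicon, not normalized, and their processing notes name Torrent Suite 5.10.1 and mm10. The methods name normalized values, whereas the deposited counts are whole numbers with unequal totals. Of 23930 targets, 27 symbols had become dates in a spreadsheet and were recovered from amplicon names.

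Groups follow the labels. HDM+Nafamostat and PBS libraries were fitted with edgeR 4.0.16 (R 4.3.3) on targets with at least 30 summed counts, with TMM scaling, the quasi-likelihood F test and Benjamini-Hochberg adjustment over all 14079 targets. A call required an adjusted p under 0.05 and at least 2-fold. Levels are CPM on 1 TMM scale for all 10 libraries. The code was tested on simulated data. Total counts per library, given at the start of the results, set the precision, and replicates differed by more than counting error (chi-square per gene 8.11 to 24.7). With 1 library per mouse, p-values measure the spread between these samples, animals and preparation together, and the methods speak of separate experiments without saying which mice were in which.

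Genes were named by rule: the called genes of smallest p (12 higher, 10 lower) and largest fold (6 each way) where the higher group averaged 10 CPM or more and the groups did not overlap, members of gene lists by smallest p, genes the study measured otherwise, the 8 called genes with the widest and narrowest range among treated mice, and the 8 with the smallest p against HDM of the same sign. List members outside the leading ones (Muc4, Muc16, Muc20, Cftr, Tpsb2, Cd3g, Ctla4, Icos, Foxp3, Ackr2, Amotl2, Lgr6, Myocd) were picked with their values known. The comparison, its members and the lists were chosen with earlier results of these data known. Promoters and positions are from RefSeq (GRCm38.p6), the assembly of mm10.

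Alternatives were median-of-ratios factors, library totals, DESeq2 1.42.0, no filter, the filterByExpr filter, all 3 groups in 1 fit, the replicate block, no fold threshold, a threshold and margin of 1.5-fold, and each library left out. The count without genes of other tissues was added after seeing the data. A gene that the naming rule gives is not reported here. Other measurements of the study are not analysed here.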

Additional observations from a re-analysis of the deposited data

Results flagged for a closer look

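In the PBS group of 4 mice, 14 of 211 quantities named in the results or summed over gene lists had 1 mouse far from the other 3 by Dixon's criterion at 95%. For normally distributed values chance alone does this in about 1 in 20 groups. Groups of 3 mice were not examined in this way. In 5 genes that PBS lungs barely express, the remaining 3 PBS libraries were at 0. There any count in 1 library meets the criterion, so this rate does not apply to them. Cd209e had 0.158 CPM, Orm2 0.158 CPM, Ccr3 0.158 CPM and Capn9 0.789 CPM in PBS replicate 4, and Pdcd1lg2 had 0.145 CPM in PBS replicate 2. For the first 3 and Pdcd1lg2 this is 1 count.

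PBS replicate 4 was also the highest of its group for Ccl17 at 10.3 CPM (2.45 to 3.78 CPM in the others), Adgre1 at 14.2 CPM (6.87 to 7.27 CPM), Prkcdbp at 24.1 CPM (13.1 to 14.9 CPM) and the sum of cytosolic ribosomal protein genes at 21197 CPM (14195 to 15149 CPM), and the lowest for Myh6 at 110.4 CPM (221 to 242 CPM). PBS replicate 2 was the highest for Inhba, at 10.2 CPM (4.10 to 4.42 CPM). PBS replicate 1 was the lowest for Scgb1a1, at 33077 CPM (37930.0 to 38439 CPM), and the highest for Myocd, at 7.03 CPM (4.89 to 5.25 CPM), and for the sum of thymic genes, at 1.80 CPM (0.897 to 1.02 CPM). Ccl17, Adgre1 and Inhba kept their calls when any 1 library was left out, and Prkcdbp lost its call without PBS replicate 4, at −0.81.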

How the results depend on the processing

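Of 133 named genes that were called, 108 passed the filter of every alternative and kept their call wherever a value was given. The others lost their call under some alternative or were among 5 genes that were not tested under some alternative. The higher calls were 642 and the lower 171 with median-of-ratios factors, 596 and 204 with library totals only, 643 and 187 with DESeq2, 693 and 187 with no filter, 614 and 163 with filterByExpr and 672 and 156 with all 3 groups in 1 fit. With no fold threshold 1229 were higher and 779 lower, with a threshold of 1.5-fold 1051 and 615, and 4267 targets had their interval within 1.5-fold of PBS. When single libraries were left out, higher calls ranged from 472 to 691, lower calls from 121 to 227 and targets within 2-fold from 8421 to 8952. Alb, which was not called (1.47) but was with no filter (1.48), changed sign to −4.23 without HDM+Nafamostat replicate 2 and ranged up to 2.23 without PBS replicate 3. Correlations of the deviations from the group means were 0.011, 0.175 and 0.023 between libraries of equal replicate number. Between unequal numbers they ranged from −0.169 to 0.120. These values cannot show whether the numbers pair the mice. With the number as a replicate block, 681 were higher, 232 lower and 8754 within 2-fold, against 691 and 227 for the same 6 libraries without the block.

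Depth limits the scarce cytokine transcripts, since Il13, Il13ra2 and Il17a lie close to the limit of 30 counts and Il4 and Il5 under it.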
